A study of Rattus norvegicus with 6 samples.

Results

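The genes described here are 10 named genes of the NF-kB pathway: the subunit genes *Nfkb1*, *Nfkb2* and *Relb*, the feedback inhibitors *Nfkbia* and *Tnfaip3*, and the secreted targets *Lcn2*, *Ccl2*, *Cxcl1*, *C3* and *Mmp9*. They were selected because *Lcn2* and *Ccl2* were higher in siDerl1 NSCs, so the comparison between the siRNA groups is a description of these genes and no test of it is given for them. Of the 10 genes, 8 have a row among the 17315 rows of the expression tables, and *Relb* and *Tnfaip3*, which have none under these symbols, were not analysed here. Poly(A) RNA was sequenced from adult rat hippocampal neural stem cells (NSCs), a cloned line from Fisher (F344) rats, in 2 groups of 3 samples. The siControl NSCs received a negative control duplex by reverse transfection and the siDerl1 NSCs received 1 duplex against *Derl1*, which encodes Derlin-1, a membrane protein of the endoplasmic reticulum that takes part in protein quality control. Cells of both groups proliferated for 2 days after transfection and then spent 2 days in medium that held BMP4, a growth factor that brings these cells into quiescence. The samples of each group are numbered 1 to 3, and the sources used here do not say whether they came from separate cultures, so p-values measure the spread between these samples, which may be technical.

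NF-kB is a family of transcription factors made of paired subunits that IkB proteins hold in the cytoplasm. Ligands such as TNF and IL-1 activate the IKK kinases, IkB is degraded, and the freed subunits enter the nucleus and bind kappaB sites in DNA. Among the targets are genes for chemokines, acute phase proteins and the inhibitors themselves, which close a negative feedback loop. In the hippocampus the pathway is known for inflammatory signalling by glia and for effects of cytokines on neural stem cells.

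The label of the knockdown and that of the cells were checked first. *Derl1* was at 122, 132 and 128 TPM, the estimated share of transcripts, in siControl samples 1 to 3 and at 44.9, 70.8 and 74.0 TPM in siDerl1 samples 1 to 3, and the groups did not overlap (log2 difference −1.03, adjusted p = 0.497 by limma and 0.00884 with the sample number as a block). The siDerl1 sample with the least *Derl1* was thus sample 1, at a ratio of 0.369 to siControl sample 1, against 0.537 and 0.580 for samples 2 and 3. All 8 neural stem cell markers, among them *Sox2*, *Nes* and *Vim*, were at 1 TPM or more in all 6 samples. TPM is a share per transcript length that sums to 1000000 in each sample, so levels can be set side by side between genes, but the number of reads behind each value cannot be read from it and counting error is not stated. The samples are bulk cultures, in which fewer cells of a type and less RNA per cell cannot be told apart.

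The promoter windows are shown for the genes whose values are turned to below, since kappaB sites are the DNA sequences that NF-kB binds. RefSeq windows of the assembly GRCr8, from 250 bases before to 50 bases after the annotated start, were given for 7 of the 10 genes, and those of *Ccl2*, *Mmp9* and *Relb* were not among them. Each sequence is written 5′ to 3′ on the strand of its gene, and the capitals mark letters that match the kappaB consensus on either strand. The first 4 are the 250 bases upstream of *Lcn2* (chr3:36081781-36082030, minus strand), *Cxcl1* (chr14:17479322-17479571, minus strand), *Nfkb2* (chr1:255108124-255108373, plus strand) and *Nfkbia* (chr6:78597073-78597322, minus strand). The last is a stretch of 30 bases around the start of *Nfkb1* (chr2:226805440-226805469, minus strand), whose match lies just downstream of the start.
Lcn2: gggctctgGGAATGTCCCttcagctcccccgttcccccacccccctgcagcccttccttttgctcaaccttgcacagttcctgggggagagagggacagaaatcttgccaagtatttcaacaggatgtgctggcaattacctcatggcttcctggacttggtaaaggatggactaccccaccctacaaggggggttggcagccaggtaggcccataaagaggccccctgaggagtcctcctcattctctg
Cxcl1: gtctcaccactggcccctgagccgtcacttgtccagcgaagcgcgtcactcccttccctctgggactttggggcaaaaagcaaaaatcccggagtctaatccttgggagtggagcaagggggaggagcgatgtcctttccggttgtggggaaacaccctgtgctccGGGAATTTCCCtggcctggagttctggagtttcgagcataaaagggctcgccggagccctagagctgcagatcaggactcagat
Nfkb2: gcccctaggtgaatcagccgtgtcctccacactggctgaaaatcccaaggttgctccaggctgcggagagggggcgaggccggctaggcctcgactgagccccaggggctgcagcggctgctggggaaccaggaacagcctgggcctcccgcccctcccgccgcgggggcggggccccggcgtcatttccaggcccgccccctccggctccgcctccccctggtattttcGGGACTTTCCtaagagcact
Nfkbia: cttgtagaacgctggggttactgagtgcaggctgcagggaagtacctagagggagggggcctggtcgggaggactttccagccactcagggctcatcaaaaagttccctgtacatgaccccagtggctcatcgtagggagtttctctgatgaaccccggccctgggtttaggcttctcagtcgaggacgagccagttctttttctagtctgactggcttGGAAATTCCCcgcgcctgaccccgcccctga
Nfkb1: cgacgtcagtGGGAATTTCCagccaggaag

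A match to the kappaB consensus was found in 6 of the 7 windows, those of *Lcn2*, *Cxcl1*, *Nfkb1*, *Nfkb2*, *Nfkbia* and *Tnfaip3*, and in 4.18% of all 33469 promoter windows. The members were named as genes and targets of this pathway, so nothing is read from their share. The *Lcn2* match began 242 bases before the start and read on the opposite strand. The *Cxcl1* window held a pair of overlapping matches on opposite strands, beginning 84 and 83 bases before the start. The matches of *Nfkb2* and *Nfkbia* began 20 and 31 bases before the start, and *Tnfaip3* held 3 matches, beginning 170, 67 and 55 bases before it. The window of *C3*, the central complement component, held none. Of the other motifs searched on both strands, AP-1 (TGANTCA) was found in the windows of *Nfkb2* and *Tnfaip3* and in 7.33% of all windows. STAT (TTCNNNGAA, in 8.87% of all windows) and the interferon-stimulated response element (ISRE, in 3.92%) were found in none of the 7. No match to the kappaB consensus overlapped a match to another motif. A match is a description of the letters in the window and says nothing of binding in these cells.

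**Figure D1:**
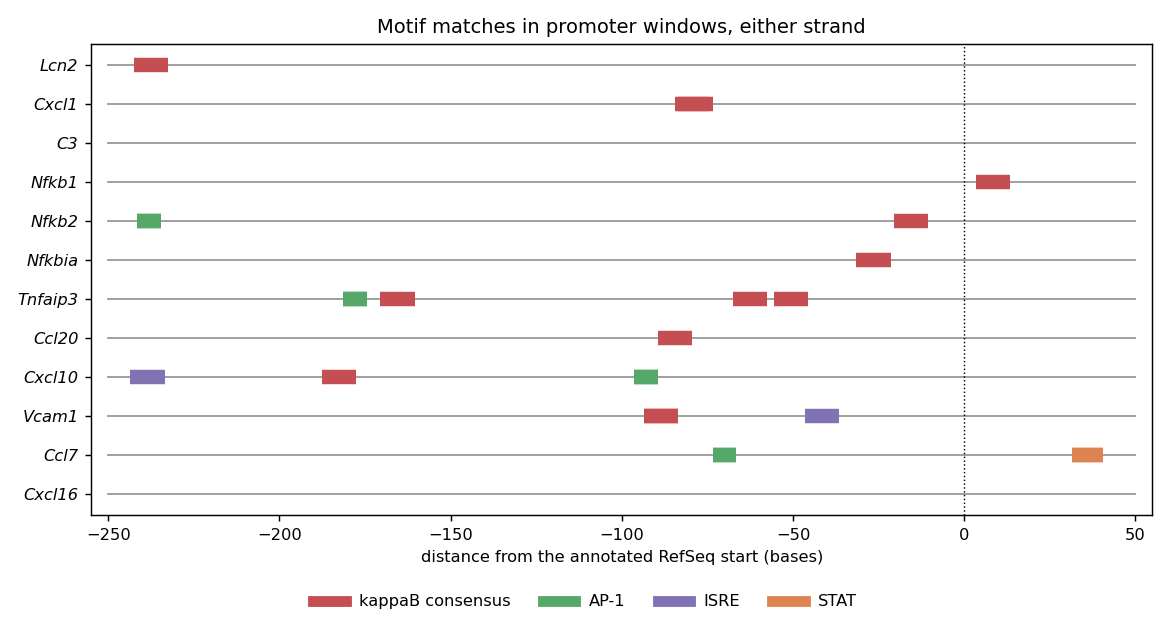
Matches to 4 motifs in RefSeq promoter windows of 7 members (*Lcn2* to *Tnfaip3*) and 5 other pathway genes; the x axis is the distance in bases from the annotated start, each line is the window searched, and a bar spans a match on either strand. The kappaB matches of *Nfkb2* and *Nfkbia* lie within 31 bases before the start, that of *Lcn2* 242 bases before it, and the windows of *C3*, *Ccl7* and *Cxcl16* hold none.

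The secreted targets were higher in siDerl1 NSCs than in siControl NSCs by group mean, at low to moderate levels, and the size of the difference varied with the sample number. *Lcn2* encodes lipocalin-2, an acute phase protein that binds iron-carrying siderophores. It was at 0.28, 0.49 and 0.30 TPM in siControl samples 1 to 3 and at 0.98, 4.85 and 8.47 TPM in siDerl1 samples 1 to 3. The groups did not overlap, and siDerl1 sample 1 was the lowest of its group. The group means were 0.357 ± 0.116 and 4.77 ± 3.75 TPM (SD, n = 3), and the mean of log2(TPM + 1) differed by 1.82 (SE 0.54). Log2 differences are given throughout as such differences of mean log values, not of mean TPM, and they understate the change of genes at low TPM. The same-number ratios of TPM were 3.5, 9.90 and 28.2.

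*Ccl2* encodes a chemokine that draws monocytes. It was at 2.28, 5.71 and 6.64 TPM in siControl samples 1 to 3 and at 4.94, 26.4 and 29.1 TPM in siDerl1 samples 1 to 3. Sample 1 was the lowest in both groups, and siDerl1 sample 1 lay within the siControl range, so the groups overlapped. The means were 4.88 ± 2.30 and 20.1 ± 13.2 TPM (SD, n = 3), and the mean of log2(TPM + 1) differed by 1.62. Within the pairs of the same number the difference was 0.86, 2.03 and 1.98.

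*Cxcl1* encodes a chemokine that draws neutrophils. It was at 1.55, 0.68 and 2.49 TPM in siControl samples 1 to 3 and at 1.51, 8.69 and 10.4 TPM in siDerl1 samples 1 to 3. The pair numbered 1 held nearly equal values, and the other siDerl1 samples lay above all siControl samples. The mean of log2(TPM + 1) differed by 1.40 between the groups, and by pair the difference was −0.02, 2.53 and 1.71. *Cxcl1* and *Cxcl2* are related genes, as are *Ccl2* and *Ccl7*, and reads that such genes share are divided by estimate, so these values are uncertain to that extent.

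*Mmp9*, which encodes a gelatinase that cuts extracellular matrix, was at 0.20, 0.12 and 0.22 TPM in siControl samples 1 to 3 and at 0.64, 1.80 and 1.60 TPM in siDerl1 samples 1 to 3. *C3* was listed at 0, 0.07 and 0.04 TPM in siControl samples 1 to 3 and was at 0.09, 0.50 and 0.57 TPM in siDerl1 samples 1 to 3. For both genes the groups did not overlap, and siDerl1 sample 1 was the lowest of its group. Both means over the 6 samples were below 1 TPM, the minimum for the fit across genes, so *Mmp9* (log2 difference 0.95) and *C3* (0.40) are given as values alone.

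**Figure D2:**
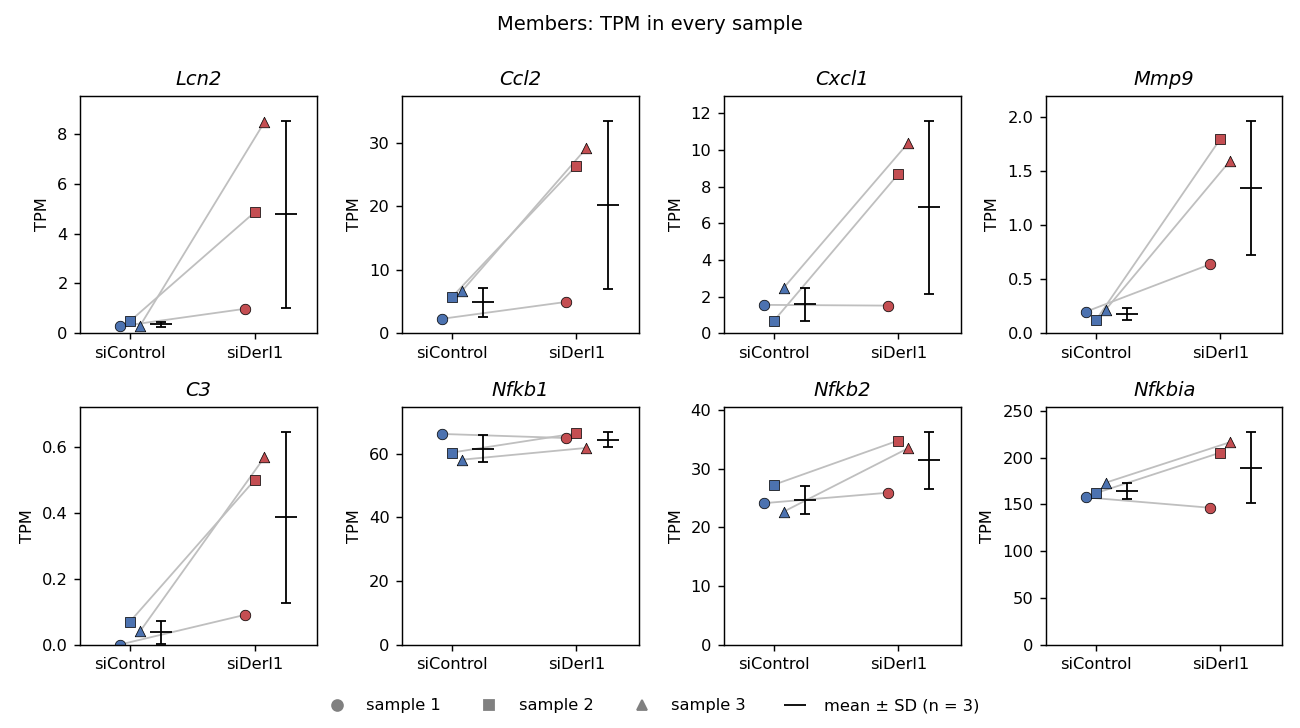
TPM of the 8 members with a row (y axes from 0, a scale for each gene) in the 3 siControl and 3 siDerl1 samples; symbols give the sample number, grey lines join samples of the same number, and black bars are the mean ± SD. For *Lcn2*, *Ccl2*, *Cxcl1*, *Mmp9* and *C3* siDerl1 samples 2 and 3 lie above all siControl samples, while the *Nfkb1* values of all 6 samples lie between 58.1 and 66.4 TPM.

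The subunit genes were at higher levels than the secreted targets and differed less between the groups. *Nfkb1* encodes the precursor of p50, a subunit of the canonical pathway, and was at 66.2, 60.3 and 58.1 TPM in siControl samples 1 to 3 and at 64.9, 66.4 and 61.8 TPM in siDerl1 samples 1 to 3. The groups overlapped, and the difference was 0.07 on the log2(TPM + 1) scale. It was 0.12 without siControl sample 1, 0.03 without siControl sample 3 and 0.04 without siDerl1 sample 2. *Nfkb2* encodes the precursor of p52, the subunit of the non-canonical pathway that is processed after the kinase NIK is activated. It was at 24.1, 27.3 and 22.7 TPM in siControl samples 1 to 3 and at 25.9, 34.8 and 33.5 TPM in siDerl1 samples 1 to 3. Here siDerl1 sample 1 lay within the siControl range and the others above it, and the difference was 0.33 on the log2(TPM + 1) scale (SE 0.14), or 0.10, 0.34 and 0.54 by pair.

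*Nfkbia* encodes IkBα, the inhibitor that is itself induced by NF-kB. It was at 157, 162 and 173 TPM in siControl samples 1 to 3 and at 146, 205 and 217 TPM in siDerl1 samples 1 to 3. The lowest of all 6 values was that of siDerl1 sample 1, while siDerl1 samples 2 and 3 lay above all siControl samples. The means were 164 ± 8.11 and 189 ± 37.7 TPM (SD, n = 3), and the log2 difference was 0.19, or −0.11, 0.34 and 0.32 by pair. Without siDerl1 sample 1, 2 or 3 it was 0.36, 0.12 and 0.08.

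In the order of level per transcript length, siControl NSCs held *Nfkbia*, *Nfkb1*, *Nfkb2*, *Ccl2*, *Cxcl1*, *Lcn2*, *Mmp9* and *C3*, from high to low. Of the neighbours in this order only *Ccl2* and *Cxcl1* had overlapping ranges over the siControl samples. The order of the means was the same in siDerl1 NSCs, where *Nfkb2* and *Ccl2*, *Ccl2* and *Cxcl1*, *Cxcl1* and *Lcn2*, and *Lcn2* and *Mmp9* overlapped with each other.

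Counted over the members, siDerl1 exceeded siControl in 5 of 8 in the pair numbered 1 and in 8 of 8 in each of the pairs numbered 2 and 3. The median difference was 0.11, 0.90 and 0.84 on the log2(TPM + 1) scale, beside 0.01, −0.03 and −0.03 over the 10331 genes tested. A difference of at least 1 on that scale was seen in 0, 4 and 4 of the 8 members, and in 0.852%, 0.639% and 0.755% of all genes tested. The 4 members were *Lcn2*, *Ccl2*, *Cxcl1* and *Mmp9* in both pairs. Groups that did not overlap, with siDerl1 higher, were found for *Lcn2*, *Mmp9* and *C3*, of which only *Lcn2* was among the 6 members tested, and for 5.09% of all genes tested. Since the members were selected on this comparison, nothing is read from these counts.

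**Figure D3:**
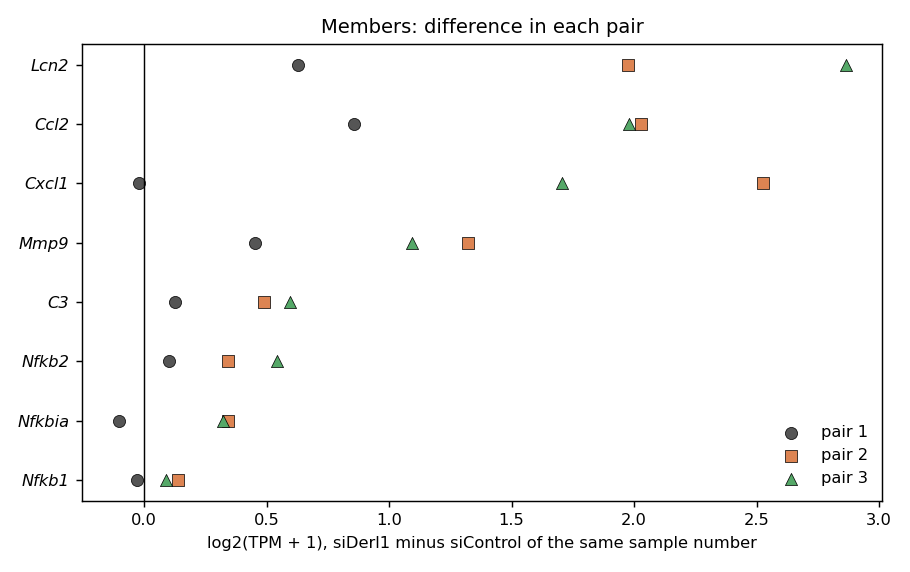
Difference between siDerl1 and siControl samples of the same number for each member (x axis, log2(TPM + 1)); symbols give the pair. All points of the pair numbered 1 lie below 1, and those of *Cxcl1*, *Nfkb1* and *Nfkbia* lie below 0, while *Lcn2* reaches 2.86 in the pair numbered 3.

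The rule that chose the members rests on the siRNA groups and not on the sample number. The difference between numbers was therefore tested with limma's moderated F test in a fit with the siRNA group, adjusted over all genes tested. The choice was made with earlier results of these data known and rested on *Lcn2* and *Ccl2*, so the p-values of the members are descriptive. *Ccl2* differed between the numbers (F = 25.7, adjusted p = 0.00570), as did 10.6% of all genes tested. It was 1 of the 5 members at a mean of 1 TPM or more in both groups, since *Lcn2* reached that minimum through the siDerl1 samples alone. In siControl NSCs the mean of samples 2 and 3 was 2.71 times the *Ccl2* level of sample 1, and in siDerl1 NSCs it was 5.62 times. The call of *Ccl2* was lost without the filter on low values (adjusted p = 0.0501) and without the intensity trend of the variance (adjusted p = 0.0946). The adjusted p was 0.242 for *Cxcl1*, 0.114 for *Nfkbia*, 0.344 for *Nfkb2* and 0.577 for *Nfkb1*. Leaving out siControl sample 1, siControl sample 2 or siDerl1 sample 2 gave 3, 3 and 2 of these 5 members called, beside 15.4%, 10.9% and 11.1% of all genes in the same fits.

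Markers of the interferon response moved with the sample number too. The summed level of 11 such genes, among them *Mx2*, *Isg15* and *Rsad2*, was 57.9, 734 and 744 TPM in siControl samples 1 to 3 and 60.8, 1389 and 1333 TPM in siDerl1 samples 1 to 3. It was thus low in both samples numbered 1 and highest in siDerl1 samples 2 and 3, and its part in the values of the members was not tested.

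Markers of immune cells were low or absent. Of 7 neutrophil markers 6 were listed at 0 in all 6 samples, *S100a8*, *S100a9*, *Mpo* and *Elane* among them, and the list summed to at most 0.52 TPM in siControl and 0 in siDerl1 NSCs. Of 13 microglia and macrophage markers 11 were under 1 TPM in all samples and *Cx3cr1*, *Tyrobp*, *Trem2*, *C1qa* and *C1qb* were listed at 0, with sums of 5.17 to 9.36 TPM in siControl and 5.80 to 7.96 TPM in siDerl1 NSCs. The endothelial list of 7 markers, with *Cdh5* and *Cldn5* at 0, summed to 3.94 to 4.53 TPM and 3.95 to 6.39 TPM. The fibroblast and pericyte list of 7 markers, with *Lum*, *Dcn* and *Rgs5* at 0, summed to 1.22 to 2.00 TPM in siControl and 3.04 to 3.49 TPM in siDerl1 NSCs, and its part in the member values was not tested. The 6 astrocyte markers, which neural stem cells share in part, summed to 782, 579 and 573 TPM in siControl samples 1 to 3 and to 827, 601 and 568 TPM in siDerl1 samples 1 to 3. The 8 neural stem cell markers summed to 4083, 5624 and 5987 TPM and to 4508, 5706 and 5957 TPM. In both groups sample 1 had the highest astrocyte sum and the lowest neural stem cell sum. These sums add TPM, so an abundant gene can set them. *S100b* reached 708 TPM in the astrocyte list and *Vim* 5044 TPM in the neural stem cell list. The sums thus moved with the sample number, which need not hold for each gene of the lists, and their part in the member values was not tested.

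The rest of the pathway was read from lists by role, with 111 genes named, 104 with a row and 65 at a mean of at least 1 TPM. These genes were tested between the groups with limma on log2(TPM + 1), and no gene passed an adjusted p under 0.05 (0 of 65, and 0% of all 10331 genes), while 4 of 65 and 692 of all genes had an unadjusted p under 0.05. The study's fold limits, above 1.5 or below 0.8 with an unadjusted p under 0.05, were applied here to the ratio of mean TPM and the limma p, in place of the study's own edgeR values. By these limits 3 of the 65 genes were higher and 0 lower, beside 0.716% and 1.49% of all genes. With the sample number as a block these became 7 higher and 1 lower, beside 1.66% and 2.57% of all genes, and 0 of the 65 passed an adjusted p under 0.05, beside 0.552% of all genes. The median log2 difference of the 65 genes was 0.04, beside −0.02 over all genes, and 37 of them (56.9%) were higher in siDerl1 NSCs by sign, beside 45.2% of all genes. *Ccl7* reached the minimum of 1 TPM through the siDerl1 samples alone and *Traf1* and *Ltb* through the siControl samples alone. Of the other 62 genes 36 were higher by sign, 3 passed the limits as higher, and 6 did so with the block. Leaving out 1 sample at a time gave 0 to 6 genes higher, with 0 without siControl sample 3 or siDerl1 sample 3, 1 without siControl sample 2 or siDerl1 sample 2, and 6 without siDerl1 sample 1.

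**Figure D4:**
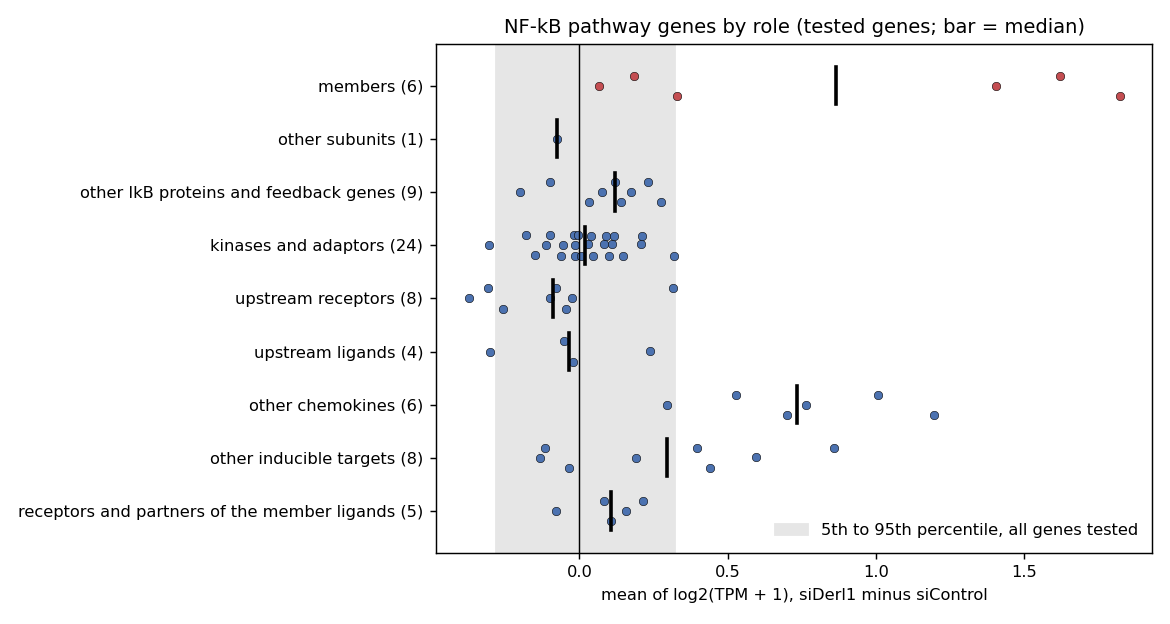
Difference of the mean log2(TPM + 1) between the groups (x axis, siDerl1 minus siControl) of the 6 members tested and the 65 other pathway genes by role; each point is a gene, black bars are medians, and the grey band runs from the 5th to the 95th percentile of all genes tested (−0.28 to 0.32). The medians of the other chemokines (0.73, with *Ccl7*) and other inducible targets (0.29) lie highest among the lists of other genes, and those of receptors, kinases and subunits lie near 0.

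At the start of the pathway, the ligands *Il1a*, *Il1b*, *Lta* and *Tnfsf11* were listed at 0 in all 6 samples and *Tnf* was at most at 0.70 TPM. The ligand with the highest mean was *Tnfsf12*, which encodes TWEAK, at 26.1 TPM. Of the 8 receptors tested 1 was higher and 7 were lower by the sign of the difference (median −0.09), and none passed the study's limits without the block. *Tlr3*, a receptor of double-stranded RNA, was at 4.54, 7.56 and 6.86 TPM in siControl samples 1 to 3 and at 3.15, 5.37 and 5.48 TPM in siDerl1 samples 1 to 3. It was lower in each pair, with a difference of −0.37 between the groups on the log2 scale, and passed the limits with the block alone (adjusted p = 0.298 with the block and 0.822 without). *Ltbr*, the lymphotoxin beta receptor, was the most abundant receptor at a mean of 116 TPM.

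Further down, none of the 24 kinases and adaptors passed the limits, with 13 higher and 11 lower and a median of 0.02. *Rbck1*, a subunit of the linear ubiquitin ligase, was the most abundant of them at a mean of 87.3 TPM. *Rela*, the subunit that pairs with p50, was at 92.1, 80.5 and 80.6 TPM in siControl samples 1 to 3 and at 85.5, 80.5 and 74.1 TPM in siDerl1 samples 1 to 3, and the groups overlapped (log2 difference −0.08, adjusted p = 0.917). Of 9 other IkB proteins and feedback genes 7 were higher and 2 lower (median 0.12), and none passed the limits. *Tnip1*, a partner of the inhibitor A20 that *Tnfaip3* encodes, was the most abundant of these at a mean of 48.8 TPM.

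The other chemokines were higher in siDerl1 NSCs by sign in 5 of the 5 genes at 1 TPM or more in both groups, with a median of 0.70, beside the 45.2% of all genes given above. *Ccl7*, under that minimum in siControl NSCs, is left out of this count. *Cxcl16* passed the limits without the block, and *Cxcl16*, *Ccl5*, *Ccl7*, *Ccl20* and *Cxcl10* passed them with it, but each missed an adjusted p of 0.05 in both fits. *Cxcl16*, a membrane-bound chemokine, was at 10.8, 9.96 and 9.60 TPM in siControl samples 1 to 3 and at 15.5, 12.03 and 18.2 TPM in siDerl1 samples 1 to 3, with no overlap. Its difference was 0.53 (adjusted p = 0.704, with the block 0.144).

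*Cxcl10*, a chemokine that interferons and NF-kB induce, was at 3.65, 72.8 and 73.0 TPM in siControl samples 1 to 3 and at 4.74, 138 and 155 TPM in siDerl1 samples 1 to 3. Both samples numbered 1 were low, and it differed between the numbers (adjusted p = 9.75e-07). Its difference between the groups was 0.76 (adjusted p = 0.953, with the block 0.0517). *Ccl20*, which draws lymphocytes and dendritic cells, was at 3.49, 13.3 and 9.53 TPM in siControl samples 1 to 3 and at 2.96, 25.4 and 26.9 TPM in siDerl1 samples 1 to 3. Its difference was 0.70 (adjusted p = 0.913, with the block 0.232), and the numbers differed (adjusted p = 0.00346).

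*Ccl7*, a monocyte chemokine, was listed at 0 and was at 0.55 and 1 TPM in siControl samples 1 to 3 and at 0.36, 3.40 and 5.22 TPM in siDerl1 samples 1 to 3. *Ccl5*, also known as RANTES, was listed at 0 and was at 2.68 and 1.10 TPM in siControl samples 1 to 3 and at 0.60, 6.04 and 4.56 TPM in siDerl1 samples 1 to 3. In both genes the samples numbered 1 were the lowest of their group, as in *Ccl2*. The differences were 1.20 for *Ccl7* (adjusted p = 0.763, with the block 0.119) and 1.01 for *Ccl5* (adjusted p = 0.817, with the block 0.108). *Ccl3*, *Ccl4*, *Ccl11*, *Ccl22* and *Cxcl3* were listed at 0 in all 6 samples.

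Among the 8 other inducible targets tested 5 were higher and 3 lower (median 0.29), and 2 passed the limits in both fits. *Csf1*, the growth factor of macrophages and microglia, was at 17.4, 24.3 and 16.0 TPM in siControl samples 1 to 3 and at 22.6, 36.5 and 29.8 TPM in siDerl1 samples 1 to 3. It was higher in all 3 pairs, though the groups overlapped, with a difference of 0.60 (SE 0.21, adjusted p = 0.704, with the block 0.0644). *Lif*, a cytokine of the IL-6 family that acts on neural stem cells, was at 3.68, 1.21 and 1.48 TPM in siControl samples 1 to 3 and at 3.22, 5.44 and 4.63 TPM in siDerl1 samples 1 to 3. It was higher in the pairs numbered 2 and 3 only, with a difference of 0.86 (adjusted p = 0.707, with the block 0.229). *Gadd45b*, a stress-induced gene, was the most abundant at a mean of 127 TPM.

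**Figure D5:**
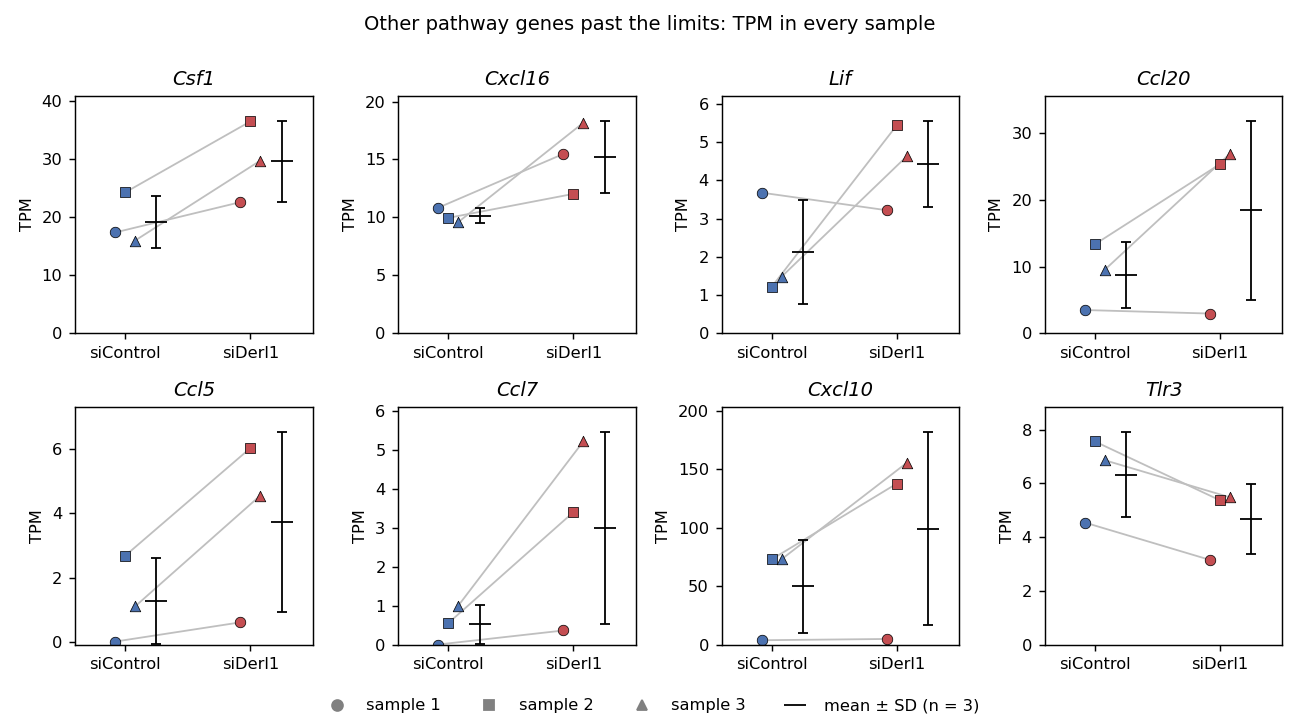
TPM of the 8 other pathway genes past the study's limits in the fit without or with the block, in the 3 siControl and 3 siDerl1 samples; symbols give the sample number, grey lines join the same number, black bars are the mean ± SD, and each gene has its own y axis. *Ccl5*, *Ccl7* and *Cxcl10* are lowest in the samples numbered 1, and *Tlr3* is lower in siDerl1 in each pair.

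Receptors and partners of the member ligands were partly absent. *Cxcr2*, the receptor of the CXCL1 chemokine, and the complement receptors *C3ar1* and *C5ar1* were listed at 0 in all 6 samples. *Slc22a17*, a lipocalin-2 receptor, was at 99.2, 93.0 and 90.7 TPM in siControl samples 1 to 3 and at 122, 120 and 89.7 TPM in siDerl1 samples 1 to 3, and the groups overlapped (difference 0.21, adjusted p = 0.773). *Timp2*, a metalloproteinase inhibitor, was the most abundant at a mean of 432 TPM, and none of the 5 genes tested passed the limits. *Slc22a17* was named after its values were seen.

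The sample number differed in 12 of the 65 genes, or 18.5%, against the 10.6% of all genes given above. They were 4 chemokines (*Ccl5*, *Ccl7*, *Ccl20* and *Cxcl10*), the receptors *Il1rap*, *Tnfrsf12a* and *Ngfr*, and *Il33*, *Gadd45b*, *Irf1*, *Timp2* and *Lrp1*. *Ccl7* among them reached the minimum through the siDerl1 samples alone. Of the 62 genes at 1 TPM or more in both groups, 0, 1 and 4 were higher in siDerl1 by 1 or more on the log2 scale in the pairs numbered 1, 2 and 3, beside 0.852%, 0.639% and 0.755% of all genes. Without both samples numbered 1, a choice made after seeing the data, 8 of the 65 genes passed the limits as higher and 2 as lower, beside 1.6% and 2.81% of all genes. *Ccl7* was among the 8 genes higher. *Cxcl10* passed an adjusted p of 0.05 (difference 0.99, adjusted p = 0.00696), as did 0.319% of all genes. The member differences were then 2.42 for *Lcn2*, 2.00 for *Ccl2*, 2.12 for *Cxcl1*, 0.44 for *Nfkb2* and 0.11 for *Nfkb1*.

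Promoter windows were at hand for 50 of the 65 genes, and 13 of them, or 26%, held a match to the kappaB consensus, beside 4.18% of all windows. The other motifs were also found more often in these 50 windows than in all windows. AP-1 was in 16% beside 7.33%, STAT in 18% beside 8.87%, and ISRE in 12% beside 3.92%. A pair of chemokine windows is shown with 30 bases around the match, for *Ccl20* (chr9:91837060-91837089, plus strand, beginning 89 bases before the start) and *Cxcl10* (chr14:15988869-15988898, plus strand, beginning 187 bases before the start). The *Cxcl10* window held an ISRE match, beginning 243 bases before the start, and an AP-1 match as well. The windows of *Cxcl16* and *Ccl7* held no match to the kappaB consensus.
Ccl20: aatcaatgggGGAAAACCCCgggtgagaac
Cxcl10: gcaggaaagaGGGAAATTCCaagctcatgg

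The patterns most like those of *Lcn2* and *Ccl2* were found with Pearson's r of log2(TPM + 1) over the 6 samples, among 10330 genes. The genes nearest to *Lcn2* were *Zfp458* (r = 0.99), *Slx4ip* (0.99) and *Cdr2* (0.98), and 17 genes had an r of at least 0.95. *Zfp458* was at 1.09, 1.18 and 1.10 TPM in siControl samples 1 to 3 and at 1.20, 1.63 and 1.93 TPM in siDerl1 samples 1 to 3. The genes nearest to *Ccl2* were *Nfkbie* (r = 0.99), which encodes the inhibitor IkBε, *Optn* (0.99), which encodes optineurin, and *Ccl7* (0.99), and 40 genes had an r of at least 0.95. *Nfkbie* spanned a narrow range, from 13.3 TPM in siControl sample 1 to 16.3 TPM in siDerl1 sample 3. Among the members, *Lcn2* and *Ccl2* had an r of 0.93 with each other, and *Nfkb1* had an r of 0.23 with *Lcn2* and of −0.00 with *Ccl2*. *Nfkb2* had an r of 0.93 with *Lcn2* and 0.89 with *Ccl2*, and *Nfkbia* 0.87 and 0.93. The samples share the siRNA groups and the numbers, so these values describe the 6 samples and no p is given.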

How the data were processed

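RNA-seq was analysed from 3 siControl and 3 siDerl1 samples, grouped and numbered by their titles. The authors made strand-specific libraries of poly(A) RNA, used Trimmomatic 0.39 for trimming, STAR 2.7.3a for mapping to rn6 and RSEM 1.3.2 for estimating expression. The deposited values are TPM, rounded to 2 decimals. The authors' edgeR 3.28.1 tests used values not used here.

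TPM were set as log2(TPM + 1), and the 10331 genes with a mean of at least 1 TPM were fitted with limma 3.58.1 in R 4.3.3 (lmFit, eBayes with an intensity trend) with Benjamini-Hochberg adjustment, two-sided. Fits were tested on simulated data with independent noise. A limit on false calls was checked there for the group fits only, not for the sample number test. The members and gene lists were chosen with earlier results of these data known. The text names the members, other pathway genes past either call rule without or with the block, the most abundant gene of each list and the 3 genes most like *Lcn2* and *Ccl2*; other names illustrate a count. A gene of 1 marker list is not reported here.

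Deviations from the group means correlated at 0.70, 0.35 and 0.51 between same-numbered samples across genes, so the numbers were taken as pairs, from this check alone. Samples of numbers 2 and 3 also correlated across numbers, at 0.34 (siControl 2 with siDerl1 3) and 0.25 (siControl 3 with siDerl1 2), so the check mainly sets number 1 apart. Results were recomputed with 0.1 as the pseudocount, no filter or a mean of at least 5 TPM, median-of-ratios scaling, no trend, the block and each sample left out. Promoter sequences came from RefSeq (GRCr8); no coordinates of rn6 are given.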

Additional observations from a re-analysis of the deposited data

How the results depend on the processing

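The member differences kept their sign under all alternatives run, and the log2 values of *Lcn2*, *C3* and *Mmp9* went to 3, 1.67 and 2.27 with a pseudocount of 0.1, when the median of the 8 members went from 0.68 to 1.73. Leaving out each sample gave a median of 0.57 to 0.88 and moved *Ccl2* to 2.38 without siDerl1 sample 1, *Nfkbia* to between 0.08 and 0.36, and *Nfkb1* to between 0.03 and 0.12. Median-of-ratios factors lay between 0.987 and 1.01.

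Other pathway genes higher by the study's limits numbered 3, and 5 without a filter, 7 with the replicate block, 8 with the block and no filter, 5 with the block and no trend, 8 without both samples numbered 1 and 0 to 6 with a sample left out. Lower genes numbered 0, and 1 with the block (with the filter, without it or without the trend), 2 without both samples numbered 1 and 0 to 1 with a sample left out. By an adjusted p under 0.05 the count was 0, and 1 without both samples numbered 1. Over all genes, 74 were higher by the limits, and 158 without a filter, 30 at a mean of at least 5 TPM, 171 with the block, 272 with the block and no filter, 177 with the block and no trend, 165 without both samples numbered 1 and 59 to 118 with a sample left out. Lower genes numbered 154, and 266 with the block, 331 with the block and no filter, 305 with the block and no trend, 290 without both samples numbered 1 and 124 to 262 with a sample left out, the last without siControl sample 1. By an adjusted p under 0.05 there were 0, and 57 with the block, 2 with the block and no filter, 0 with the block and no trend and 33 without both samples numbered 1. The block changed no other call.

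The sample number was called for 1092 genes, and for 591 without a filter, 252 without the trend and 608 to 1594 with a sample left out. It was called for 1 member, for 0 without a filter or without the trend, and for 1 to 4 with a sample left out (*Lcn2* included), and for 12 other pathway genes, 4 without the trend and 9 to 19 with a sample left out, 19 without siControl sample 1. The cause of these shifts was not tested. The combinations with the block and the fit without both samples numbered 1 were chosen after seeing the data. TPM keep no depth, so differences at low TPM cannot be set against counting error.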
